A study of Sus scrofa with 16 samples.

Results

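The miR-23/27/24 clusters are represented by 6 of the 1940 entries of the deposited miRNA count table, ssc-miR-23a, ssc-miR-27a, ssc-miR-24-1-5p, ssc-miR-24-2-5p, ssc-miR-23b and ssc-miR-27b-5p. They were picked by name, as every entry called miR-23a, miR-23b, miR-27a, miR-27b or miR-24, and no measured value entered that choice. The clusters were nevertheless proposed as a group with earlier results of these libraries known, so the p-values below describe the data and are not independent support. All 6 passed the filter on low counts, as did 445 of the 1940 entries and 200 of the 216 known miRNAs. The libraries came from whole ovaries of 16 Canadian Large White sows, 1 small RNA library per sow. LH and LL sows had high and low fecundity and were sampled in the luteal phase, on day 14 of the estrous cycle, and FH and FL sows had high and low fecundity and were sampled in the follicular phase, on day 20 (n = 4 sows per group, no sow in more than 1 group). No treatment or genetic modification separated the groups, and fecundity was judged by litter size. Every LH sow had farrowed more often than every LL sow, so parity and fecundity cannot be told apart in the luteal ovaries, and phase is compared between different sows.

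In mammals the 3 kinds of miRNA are made from a pair of duplicated clusters, each transcribed as 1 primary transcript from which separate hairpins are cut. In the pig annotation of RefSeq (Sscrofa11.1) MIR23A, MIR27A and MIR24-1 lie next to each other, between the protein-coding genes C2H19orf57 and ZSWIM4. MIR24-2, MIR27B and MIR23B lie next to each other inside C10H9orf3, with FANCC and FBP1 on either side. The numbering of the pig MIR24 genes is thus the reverse of the human one, in which miR-24-2 belongs to the miR-23a cluster. The clusters are best known from blood vessel endothelium, where miR-23 and miR-27 promote the growth of new vessels, and from muscle and fat cells, and the ovary builds and dismantles a dense vascular bed with each corpus luteum. The mature miR-23a and miR-23b differ near the 3′ end only and share a seed, the stretch that pairs with target mRNAs, and the same holds for miR-27a and miR-27b. The main mature miR-24 is the same molecule from both hairpins.

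The names of the entries do not say which reads they hold, and how a read was given to an entry is not stated in the sources used here. The entries ssc-miR-24-1-5p and ssc-miR-24-2-5p had the same count in 15 of the 16 libraries and differed by 1 read in FL1 (49145 and 49146). They differed by less than sampling noise, so they are 1 measurement written down under 2 names, and miR-24 stands for ssc-miR-24-1-5p from here on. The miR-24 reads could not be attributed to either cluster. The entries for the 5p and 3p arms of ssc-miR-143, and those of ssc-miR-221, also carried the same counts in all 16 libraries, so an arm in a name was not a sign that only reads of that arm were counted. Because the mature sequences of the paralogs are so alike, a part of the reads of miR-23a and miR-23b, or of miR-27a and miR-27b, could have been counted under the other paralog.

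Total counts ran from 8998496 to 37194836 per library, and the 6 entries had at least 8382 counts in every library, so counting error was small beside the spread between sows. Levels are TMM-normalized CPM, written CPM, that is, read counts relative to all reads of the tested miRNAs of a library, after the trimmed mean of M-values (TMM) method has set the libraries to a common scale. Of the ovarian markers, ssc-miR-202-5p, ssc-miR-383 and ssc-miR-224 summed to 1213 to 3873 CPM in the luteal and 75.2 to 1306 CPM in the follicular ovaries. Several marker lists of other tissues differed widely between sows, with tubal or ciliated epithelium at 196 to 22017 CPM and ssc-miR-122 of liver at 1.76 to 1363 CPM. Ovaries are mixtures, and fewer cells of a type cannot be told apart from less of a miRNA per cell.

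The members spanned a wide range of levels. Over all 16 libraries ssc-miR-27b-5p averaged 14976 CPM and ranked 16th of the 200 known miRNAs. By the same measure miR-24 averaged 2880 CPM (rank 30), ssc-miR-27a 1512 CPM (rank 43), ssc-miR-23b 1434 CPM (rank 44) and ssc-miR-23a 1200 CPM (rank 48). Reads per entry are not corrected for how easily each RNA is ligated, so this order is an order of read counts. Counting miR-24 once, ssc-miR-27b-5p held 73.7 ± 2.75% of the members' CPM in LH, 67.2 ± 1.57% in FH, 69.2 ± 1.15% in LL and 61.1 ± 4.05% in FL (mean ± SD of 4 sows). The sum of the 5 distinct entries was 21772 ± 4307 CPM in LH, 27144 ± 6235 in FH, 20880 ± 1456 in LL and 18209 ± 4614 in FL. With TMM the means of the luteal groups differed by less than the SD between sows, and the sum was highest in FH2 at 35719 CPM and lowest in FL2 at 12975 CPM. These comparisons depend on the scaling, as the TMM factors were 0.851 to 1.07 in LH, 1.19 to 1.74 in LL and 0.670 in FH2. With library size in place of TMM, the 5 entries were higher in LL than in LH, by 0.40 to 1.09 on the log2 scale.

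The members were also steadier than most known miRNAs. They were among the more abundant ones as well (ranks 16 to 48), and spread was not compared at matched levels. The coefficient of variation over the 16 libraries was 21.0% for ssc-miR-23b, the 3rd lowest of the 200 known miRNAs, whose median was 54.6%. It was 25.2% for ssc-miR-27b-5p, 31.8% for miR-24, 40.4% for ssc-miR-27a and 41.1% for ssc-miR-23a. The last of these is the member whose variation followed the phase.

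**Figure D1:**
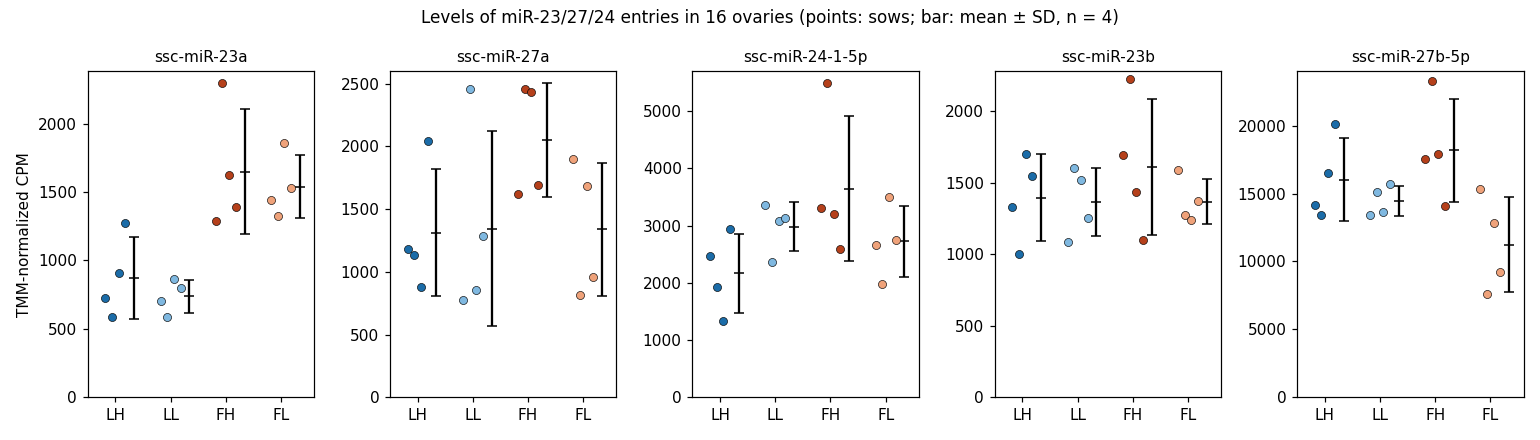
Levels of the 5 distinct entries in TMM-normalized CPM (y axis, from 0, a scale of its own in each panel) in the LH, LL, FH and FL ovaries. Each point is a sow and the bar beside each group is the mean ± SD (n = 4). All 8 luteal points of ssc-miR-23a (584 to 1272 CPM) lie below all 8 follicular points (1287 to 2299 CPM), while the phases overlap for the other entries.

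The mean level of ssc-miR-23a, from the cluster beside ZSWIM4, was about 2-fold lower in the luteal than in the follicular ovary at both levels of fecundity, and the difference passed the adjusted threshold in the low-fecundity sows. The means were 872 ± 298 CPM in LH and 1650 ± 456 in FH, and 739 ± 120 in LL and 1539 ± 230 in FL (SD, n = 4). The entry was 725, 584, 906 and 1272 CPM in LH1 to LH4 and 705, 588, 862 and 801 CPM in LL1 to LL4. In the follicular phase it was 1287, 2299, 1625 and 1388 CPM in FH1 to FH4 and 1441, 1323, 1858 and 1533 CPM in FL1 to FL4. With TMM no luteal sow reached the lowest follicular sow, although LH4, at 1272 CPM, came close to FH1, at 1287. With library size in place of TMM the phases overlapped. The entry then held 23306 of 17846888 counts in LL3, a larger share than the 38208 of 37166949 in FH4. With TMM, a separation of 8 luteal from 8 follicular sows was seen for 8 of the 445 miRNAs tested (1.80%). Of these 3 were known, the others being ssc-miR-181c and ssc-miR-493-5p, which are named because the count was small.

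In LL vs. FL the log2 fold change of ssc-miR-23a, luteal over follicular, was -1.06 (SE 0.265, adjusted p = 0.0189, by the quasi-likelihood F-test of edgeR, Benjamini-Hochberg adjusted over all miRNAs tested). It was the only member of the 6 past the adjusted threshold in that comparison, in which 69 of 445 miRNAs (15.5%) passed. It was likewise the only member past the study's own threshold (unadjusted P under 0.05 and a change of 1 or more on the log2 scale in either direction), which 134 of 445 (30.1%) passed. In LH vs. FH the log2 fold change was -0.92 (SE 0.265, edgeR adjusted p = 0.175), and no member passed either threshold. There edgeR gave no miRNA an adjusted p under 0.05 (0% of 445), while 70 had an unadjusted P under 0.05, 57 (12.8%) passed the study's threshold and DESeq2 gave 39 an adjusted p under 0.05, ssc-miR-23a among them (log2 fold change -1.02, adjusted p = 0.0133). The high- and low-fecundity comparisons shared no sows. With TMM the LH and FH sows did not overlap in ssc-miR-23a, which held for 8.99% of the miRNAs tested. Nor did the LL and FL sows, which held for 22.9%. With library size both of these pairs of groups overlapped in ssc-miR-23a. Whether the phase difference depended on fecundity was asked with the interaction, which was -0.14 for ssc-miR-23a (SE 0.371, edgeR adjusted p = 0.972).

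Averaging the phase difference over both levels of fecundity, a comparison chosen after the data had been seen, gave a log2 fold change of -0.99 (SE 0.187, edgeR adjusted p = 0.00295) for ssc-miR-23a. In that comparison 78 of 445 miRNAs (17.5%) passed the adjusted threshold and 104 (23.4%) the study's threshold, and ssc-miR-23a, with a fold just under 2, passed the first only. That call was lost with library size in place of TMM (-0.56, edgeR adjusted p = 0.0585) and without the low-count filter (-0.98, edgeR adjusted p = 0.176). In LL vs. FL the size of the change also depended on the scaling between libraries. With library size the median log2 fold change of all miRNAs moved from 0.13 to 0.66, and that of ssc-miR-23a moved to -0.46 (edgeR adjusted p = 0.269). Relative to the median miRNA it was -1.19 with TMM and -1.12 with library size. The call in LL vs. FL did not hold when no filter on low counts was applied (-1.03, edgeR adjusted p = 0.308) and without LL1 (adjusted p = 0.0755), LL2 (0.0901) or FL3 (0.0608), where the log2 fold change stayed between -1.04 and -0.95.

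Its paralog ssc-miR-23b overlapped between the phases. It was 1326, 1001, 1701 and 1548 CPM in LH1 to LH4 and 1087, 1599, 1517 and 1254 CPM in LL1 to LL4. In the follicular phase it was 1693, 2220, 1435 and 1096 CPM in FH1 to FH4 and 1586, 1275, 1236 and 1374 CPM in FL1 to FL4. In both comparisons of phase the sows overlapped, and the log2 fold changes were -0.21 in LH vs. FH (SE 0.240, edgeR adjusted p = 0.775) and -0.00327 in LL vs. FL (SE 0.240, adjusted p = 0.989).

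The ratio of the paralogs within a library needs no scaling between libraries. Luteal ovaries held more reads of miR-23b than of miR-23a in every sow, 1.22 to 1.88 times as many in LH and 1.54 to 2.72 times in LL. Follicular ovaries held similar numbers of both, with ratios of 0.790 to 1.31 in FH and 0.665 to 1.10 in FL. On the log2 scale the miR-23b/miR-23a ratio was 0.71 ± 0.29 in LH, -0.04 ± 0.32 in FH, 0.88 ± 0.38 in LL and -0.17 ± 0.31 in FL (mean ± SD of 4 sows). The LL and FL sows did not overlap, with a difference of 1.05 (exact two-sided permutation test, p = 0.0286, the smallest that 4 sows against 4 can give, and 0.229 after adjustment over the 12 tests of 3 ratios in 4 comparisons). The third of these ratios sets the miR-24 entries, which are 1 measurement, against each other. Its 4 tests could not pass and only made the adjustment stricter. The LH and FH sows overlapped by LH4 and FH1, with a difference of 0.75 (exact permutation test, p = 0.0571, adjusted 0.229). The fecundity differences were 0.17 in the luteal and -0.12 in the follicular phase, within the spread between sows (exact permutation tests, p = 0.543 and p = 0.629).

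Taking both levels of fecundity, a test chosen after the data had been seen, the miR-23b/miR-23a ratio averaged 1.74 in luteal and 0.930 in follicular ovaries, a 1.87-fold difference (exact permutation test within fecundity groups, p = 8.16e-04, adjusted over 2 ratios 0.00163, smallest possible 4.08e-04). Of the 8 luteal sows 7 lay above every follicular sow, and the exception was LH4. With each sow left out in turn the log2 difference stayed between 0.81 and 0.97.

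**Figure D2:**
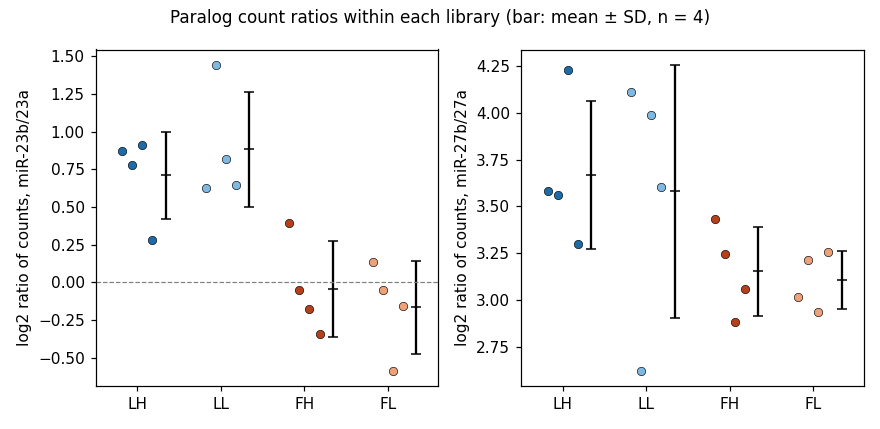
Log2 ratio of read counts of miR-23b to miR-23a (left) and of miR-27b to miR-27a (right) in each library, by group, with each point a sow and the bar the mean ± SD (n = 4). The dashed line marks equal counts. The miR-23b/miR-23a ratio lies above 0.28 in all luteal ovaries and below 0.40 in all follicular ovaries.

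The miR-27 pair is best known as a brake on fat cell formation and lipid metabolism genes. The entry ssc-miR-27a was 1182, 1137, 880 and 2042 CPM in LH1 to LH4 and 776, 2457, 859 and 1290 CPM in LL1 to LL4. In the follicular phase it was 1623, 2456, 2431 and 1692 CPM in FH1 to FH4 and 1897, 817, 1684 and 961 CPM in FL1 to FL4. It was uneven within groups, with LL2 far above LL1 and LL3. Its log2 fold changes were -0.65 in LH vs. FH (SE 0.400, edgeR adjusted p = 0.433) and 0.0059 in LL vs. FL (SE 0.399, adjusted p = 0.989), and the second was -0.48 without LL2.

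The most abundant member, ssc-miR-27b-5p, was 14124, 13388, 16497 and 20110 CPM in LH1 to LH4 and 13421, 15092, 13613 and 15665 CPM in LL1 to LL4. In the follicular phase it was 17514, 23249, 17913 and 14071 CPM in FH1 to FH4 and 15317, 7580, 12868 and 9194 CPM in FL1 to FL4. The lowest values of the series were those of FL2 and FL4, and FH2 held the highest. Its log2 fold change was -0.71 in FH vs. FL, low over high fecundity (SE 0.367, edgeR adjusted p = 0.678), and FL1 lay above FH4. The value was -0.48 without FH2 and -0.29 with the share of reads kept after cleaning as a covariate. In LL vs. FL it was 0.36 (SE 0.231, edgeR adjusted p = 0.320), which became 1.02 (adjusted p = 0.00348) when library size replaced TMM, a setting that raised the median of all miRNAs as well.

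Between the paralogs, reads of miR-27b outnumbered those of miR-27a in every library, by 9.85 to 18.7 times in LH, 7.37 to 10.8 times in FH, 6.14 to 17.3 times in LL and 7.64 to 9.56 times in FL. The log2 ratio was 3.67 ± 0.40 in LH, 3.15 ± 0.24 in FH, 3.58 ± 0.68 in LL and 3.10 ± 0.16 in FL (mean ± SD of 4 sows). The difference was 0.51 in LH vs. FH (exact permutation test, p = 0.0571, adjusted 0.229) and 0.48 in LL vs. FL (exact permutation test, p = 0.229, adjusted 0.686). Over both levels of fecundity, again chosen after the data had been seen, it was 0.49, or 1.41-fold (exact permutation test within fecundity groups, p = 0.0310, adjusted over 2 ratios 0.0310). Here the phases overlapped, with 6 of the 8 luteal sows above every follicular sow and LL2 below all of them.

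For miR-24, which is known as an inhibitor of cell cycle genes, the values were 2468, 1929, 1330 and 2940 CPM in LH1 to LH4 and 3355, 2361, 3078 and 3140 CPM in LL1 to LL4. In the follicular phase they were 3308, 5494, 3195 and 2584 CPM in FH1 to FH4 and 2666, 1980, 3498 and 2747 CPM in FL1 to FL4. LH3 was the lowest and FH2 the highest sow, and every pair of groups compared here overlapped. The log2 fold change of low over high fecundity was 0.47 in the luteal phase (SE 0.303, edgeR adjusted p = 0.479) and -0.49 in the follicular phase (SE 0.344, adjusted p = 0.704). With library size the luteal value was 1.09 (unadjusted P = 0.0113, edgeR adjusted p = 0.110), past the study's threshold, and without FH2 the follicular value was -0.11. With TMM and all sows the difference between these was 0.88 in the interaction (SE 0.404, unadjusted P = 0.0461, edgeR adjusted p = 0.338). In LH vs. FH it was -0.75 (SE 0.286, unadjusted P = 0.0200, edgeR adjusted p = 0.229) and in LL vs. FL 0.13 (SE 0.285, adjusted p = 0.855).

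Within each sow, miR-24 stood at 3.57 to 4.76 times the reads of miR-23a in LL, against 1.47 to 3.41 times in LH, 1.86 to 2.57 times in FH and 1.50 to 1.88 times in FL. The LL sows were thus above all others in this ratio, which was only described and not tested. Against miR-23b all LH sows lay below all FH sows, while the other pairs of groups compared here overlapped (0.782 to 1.93 in LH, 1.95 to 2.47 in FH, 1.48 to 3.08 in LL and 1.55 to 2.83 in FL), again as a description with no test. In the cluster inside C10H9orf3 there were 9.70 to 13.4 reads of miR-27b for each read of miR-23b in LH, 10.3 to 12.8 in FH, 8.97 to 12.5 in LL and 5.95 to 10.4 in FL. In the other cluster the ratio of miR-27a to miR-23a ran from 0.617 in FL2 to 4.18 in LL2. Correlations of log2(CPM + 1) between members over the 16 libraries, which share their scaling, ran from r = 0.13 (miR-23a and miR-27b) to 0.65 (miR-27a and miR-27b). Within the 8 follicular libraries the paralogs miR-27a and miR-27b gave r = 0.95, and within the 8 luteal libraries 0.55.

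Between high and low fecundity no member passed either threshold in either phase by edgeR with TMM. By edgeR with TMM 0 of the 6 entries had an unadjusted P under 0.05 in either comparison, and DESeq2 put 0 of them past the adjusted threshold. With library size in place of TMM, an unadjusted P under 0.05 by edgeR was reached in LH vs. LL by miR-24 (0.0113), ssc-miR-27b-5p (0.0338) and ssc-miR-23b (0.0380). In FH vs. FL it was reached by ssc-miR-27b-5p (0.0438). The edgeR adjusted p were 0.110, 0.194, 0.201 and 0.479. Of these only miR-24 in LH vs. LL, at a log2 fold change of 1.09, also passed the study's threshold. In LH vs. LL the log2 fold changes of the 5 distinct entries lay between -0.22 and 0.47 (SE 0.197 to 0.448, edgeR adjusted p from 0.479 to 0.998), with a median of -0.0027 beside 0.15 for all 362 miRNAs tested. Of those 362, 3 (0.829%) passed the adjusted threshold, 47 (13.0%) the study's threshold and 57 (15.7%) did not overlap between groups. In FH vs. FL the log2 fold changes with TMM lay between -0.71 and -0.16 (SE 0.287 to 0.414, edgeR adjusted p from 0.678 to 0.869), with a median of -0.49 beside 0.12 for all 307 tested. The negative sign was not shared under other settings, since ssc-miR-23a was at 0.14 and ssc-miR-23b at 0.01 without FH2, and at 0.21 and 0.06 with library size. There 2 of 307 (0.651%) passed the adjusted threshold, 19 (6.19%) the study's threshold and 8 (2.61%) did not overlap. In the interaction of fecundity and phase the members lay between -0.14 and 0.88, none past either threshold. Of all 445 miRNAs edgeR put 0% past the adjusted threshold there, 63 had an unadjusted P under 0.05, 59 (13.3%) passed the study's threshold, and DESeq2 gave 58 an adjusted p under 0.05.

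**Figure D3:**
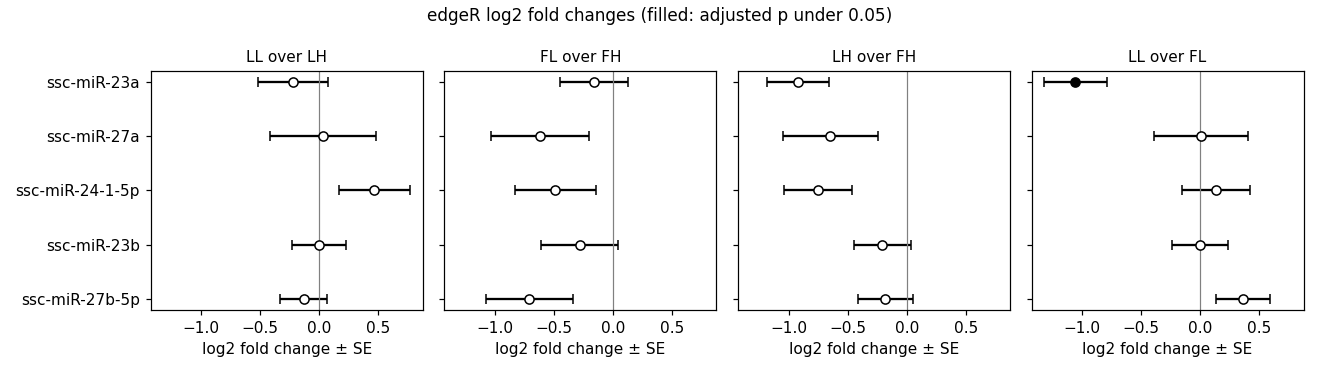
Log2 fold changes from edgeR (x axis) with their SE for the 5 distinct entries, in 4 comparisons. Filled points had an adjusted p under 0.05, which was the case for ssc-miR-23a in LL over FL only, at -1.06.

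Among 167 known miRNAs with counts in every library, the members left out, those whose log2(CPM + 1) followed ssc-miR-23a most closely over the 16 libraries were ssc-miR-133b (Pearson r = 0.949), ssc-miR-133a-5p (r = 0.921) and ssc-miR-143-5p (r = 0.876). The first pair is known from skeletal and cardiac muscle and miR-143 from smooth muscle. Within the 8 luteal libraries these values were 0.817, 0.698 and 0.664, and within the 8 follicular libraries 0.861, 0.874 and 0.750. Levels of ssc-miR-133b were 1.70 to 39.2 CPM in the luteal and 27.1 to 107 CPM in the follicular ovaries, and those of ssc-miR-143-5p 67363 to 194876 and 125791 to 395591 CPM. In LL vs. FL ssc-miR-133b had a log2 fold change of -3.31 (edgeR adjusted p = 0.00858) and ssc-miR-143-5p one of -1.37 (edgeR adjusted p = 0.00843), so both were lower in the luteal ovary.

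**Figure D4:**
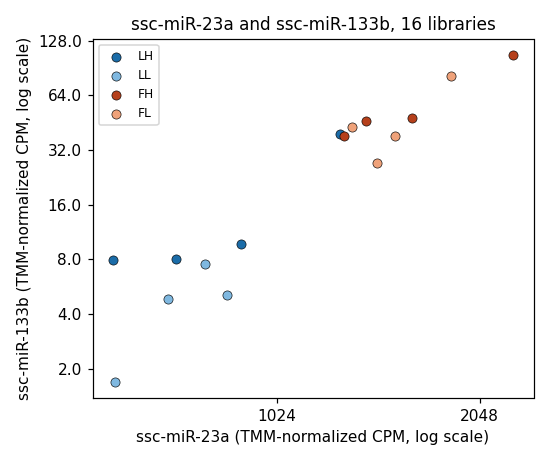
Levels of ssc-miR-23a (x axis) and ssc-miR-133b (y axis) in TMM-normalized CPM, both on log scales, in the 16 libraries, with each point a sow coloured by group. The points run along 1 diagonal (r = 0.949). The LL sows and LH1 to LH3 lie toward its lower end, and LH4 lies with the follicular sows toward its upper end.

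Some markers of other cell types also differed between the phases in LL vs. FL, where 15.5% of all miRNAs passed the adjusted threshold. In LH vs. FH no entry of any marker list passed it, as edgeR put 0% of all 445 miRNAs past it. The study's threshold, which 12.8% of all miRNAs passed there, was passed by 3 tubal or ciliated epithelium entries, all higher in LH. Lower in LH by that threshold were 2 skeletal or cardiac muscle entries, 1 vascular smooth muscle entry and 1 leukocyte entry. The 3 entries of the vascular smooth muscle list (ssc-miR-145-5p with the 3p and 5p entries of ssc-miR-143, which are the same counts) summed to 139314 to 407720 CPM in the luteal and 296230 to 840240 CPM in the follicular ovaries, and all 3 passed the adjusted threshold as lower in LL than in FL. Of the skeletal or cardiac muscle list, with 5 of 6 entries tested, 3 were lower and 1 higher in LL than in FL by adjusted p, and its sum was 449 to 3256 CPM in luteal and 565 to 4256 CPM in follicular ovaries. The 4 leukocyte entries summed to 827 to 1941 CPM in luteal and 1489 to 2994 CPM in follicular ovaries, and 1 of them was lower in LL. Neither erythrocyte entry passed in any comparison, and they ran at 36.4 to 186 CPM in sum in the luteal and 32.1 to 128 CPM in the follicular ovaries. Of the 3 gonad or granulosa entries 2 were higher in LL than in FL by adjusted p. In the tubal or ciliated epithelium list 2 of 6 entries were lower in LL, as was ssc-miR-122 of liver. The part of any of these in the ssc-miR-23a result was not tested.

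For the other members, ssc-miR-628 was the closest match to ssc-miR-27a (r = 0.718), ssc-miR-27b-5p (r = 0.773) and miR-24 (r = 0.529), at no more than 11.6 CPM in any library. For ssc-miR-27a the next were ssc-miR-95 (r = 0.634) and ssc-miR-1 (r = 0.616). For ssc-miR-27b-5p they were ssc-miR-374b-5p (r = 0.767) and ssc-miR-374a-5p (r = 0.708), and for miR-24 ssc-miR-545-5p (r = 0.518) and ssc-miR-133a-5p (r = 0.508). For ssc-miR-23b they were ssc-miR-10a-5p (r = 0.430) and the ssc-miR-143 entries (r = 0.426), below its values with the members ssc-miR-27b-5p (r = 0.554) and ssc-miR-27a (r = 0.436).

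Other miRNAs of endothelium and vessel growth moved in both directions between the phases. Of the 8 entries in the list, all tested, 1 was higher and 2 were lower in LL than in FL by adjusted p, beside the 15.5% of all miRNAs that passed. The median log2 fold change of the 8 entries was 0.68, beside 0.13 for all miRNAs, but it holds the ssc-miR-221 counts under both their names. With these counted once, the median entry was ssc-miR-296-5p, at 0.10. The one that rose in LL vs. FL was ssc-miR-126-5p, from the hairpin that marks endothelial cells, at 19305 ± 5237 CPM in LL and 6808 ± 4049 in FL (mean ± SD, n = 4, log2 fold change 1.50, edgeR adjusted p = 0.0373). Those that fell were ssc-miR-130a (log2 fold change -1.59, edgeR adjusted p = 0.0291) and the hypoxia-induced ssc-miR-210 (log2 fold change -2.30, edgeR adjusted p = 0.0354). Levels of ssc-miR-130a were 18.1 to 55.7 CPM in LL and 79.2 to 177 in FL. The groups overlapped in ssc-miR-210, at 24.3 to 107 CPM in LL and a wide 92.3 to 996 in FL. For the ssc-miR-221 entries, which are the same counts, the values were 1.26 (edgeR adjusted p = 0.0852) and for ssc-miR-222 1.49 (edgeR adjusted p = 0.0725). Averaged over fecundity, where 17.5% of all miRNAs passed, 3 of the 8 were higher and 2 lower in the luteal ovary. Those higher were the ssc-miR-221 entries (1.06, edgeR adjusted p = 0.0377) and ssc-miR-222 (1.41, edgeR adjusted p = 0.0193), those lower were again ssc-miR-130a and ssc-miR-210, and ssc-miR-126-5p was at 0.87 (edgeR adjusted p = 0.0665). In LH vs. FH, LH vs. LL and FH vs. FL none of the 8 passed the adjusted threshold, which 0%, 0.829% and 0.651% of all miRNAs tested passed. In LH vs. FH 1 passed the study's threshold, ssc-miR-222 at 1.32 (edgeR unadjusted P = 0.0253), beside 12.8% of all miRNAs. In FH vs. FL 1 passed it, ssc-miR-296-5p at 1.26 (edgeR unadjusted P = 0.0453), beside 6.19% of all miRNAs.

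A further relative by seed is ssc-miR-128, whose seed overlaps that of miR-27 when shifted by a base and which shares many predicted targets with it. It was 630, 589, 293 and 378 CPM in LH1 to LH4 and 384, 576, 449 and 486 CPM in LL1 to LL4. In the follicular phase it was 241, 166, 220 and 326 CPM in FH1 to FH4 and 167, 258, 143 and 381 CPM in FL1 to FL4. The phases overlapped, with log2 fold changes of 0.99 in LH vs. FH (SE 0.352, edgeR adjusted p = 0.224) and 1.00 in LL vs. FL (SE 0.352, adjusted p = 0.0720). Averaged over fecundity, the comparison chosen after the data had been seen, ssc-miR-128 was higher in the luteal ovary by 0.99 (SE 0.249, edgeR adjusted p = 0.0170), against -0.32 for ssc-miR-27a (adjusted p = 0.468) and 0.09 for ssc-miR-27b-5p (adjusted p = 0.744). The values of miR-27 depended on the scaling. With library size in place of TMM, ssc-miR-27b-5p was at 0.54 (edgeR adjusted p = 0.0110), past the adjusted threshold, and ssc-miR-27a at 0.14 (adjusted p = 0.735). For ssc-miR-128 no value with library size is given here. These differences between miRNAs were not tested against each other.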

How the data were processed

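Small RNA libraries of 16 ovaries were made with the NEBNext Multiplex Small RNA kit and sequenced on a HiSeq X10. The authors trimmed reads with Trimmomatic, mapped them to Sscrofa10.2 with Bowtie2 2.1.0, predicted further miRNAs with miRDeep and named DESeq2 among their tools. The authors deposited raw counts of reads per miRNA entry and library, not normalized, and how reads were assigned to entries is not given in the sources used here. Positions and neighbours in RefSeq refer to another build, so no coordinates are printed, and mature sequences were not analysed here. Parity comes from the study's records.

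Counts were tested with edgeR 4.0.16 under R 4.3.3 (quasi-likelihood F-test, TMM normalization, count minimum 10, total of at least 15), in the 8 libraries of LH vs. LL or FH vs. FL and in all 16 for phases and the interaction. P-values were adjusted (Benjamini-Hochberg) over all miRNAs tested. CPM use 1 TMM scaling of all 16 libraries. Ratios used counts + 1. A count of 0 would allow up to 3 counts of a library total, or 0.0807 to 0.333 CPM, for counting error only. Named miRNAs are the members, ssc-miR-128 and the 3 known miRNAs most correlated with each member. The planned search of predicted miRNAs for member seeds was not run. The plan paired the miR-24 entries with the clusters as numbered in human, and since their counts agree to 1 read no value depends on it. The members and lists were chosen with earlier results of these data known. The fits were tested on simulated counts. Alternatives were library size only, DESeq2 1.42.0, no filter, a replicate block, identical entries collapsed, the share of reads kept after cleaning as a covariate, the other set of libraries in the fit, a pseudocount of 0.5 for ratios and leaving out each sow.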

Additional observations from a re-analysis of the deposited data

How the results depend on the processing

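Member fold changes were refitted 720 times under other settings, with both miR-24 entries counted although they are 1 measurement. Of the 720, 678 kept their call, and those of them that were not called moved by less than 1 standard error. A further 32, not called, moved by more, 7 lost and 3 gained an adjusted p under 0.05, and 60, none of them called, changed sign. With library size alone, the 2 miR-24 entries passed the study's threshold in LH vs. LL and the same 2 in the interaction, and 0 miRNAs in FH vs. FL had an adjusted p under 0.05. With DESeq2 that number was 30 in LH vs. LL, 11 in FH vs. FL, 39 in LH vs. FH, 138 in LL vs. FL, 58 in the interaction and 141 between phases over both fecundity groups, with 1 member past either threshold in LH vs. FH and 1 past the study's threshold between phases. Without the filter it was 0, 0 and 16 in LH vs. LL, FH vs. FL and LH vs. FH, 24 in the interaction and 45 between phases, with 0 members in LL vs. FL and between phases, while 158, 93, 154, 250, 122 and 203 miRNAs, in the order of the DESeq2 counts, passed the study's threshold. With identical entries collapsed, the number was 0 in LH vs. LL. With the share of reads kept after cleaning as a covariate, it was 0 for LH vs. LL as for FH vs. FL, 14 and 6 passed the study's threshold there, and 1 member passed it between phases. With all 16 libraries in the fit, it was 1 for LH vs. LL but 0 for FH vs. FL, where 37 passed the study's threshold. With 8 libraries it was 3 in LH vs. FH, and 0 members passed the study's threshold in LL vs. FL. With the replicate block the adjusted threshold was passed by 0, 0 and 39 miRNAs in LH vs. LL, FH vs. FL and LL vs. FL, and it put 4 past the study's threshold in FH vs. FL and 39 in the interaction, and 1 member past it between phases, and ssc-miR-23a stayed past the adjusted threshold in LL vs. FL (edgeR adjusted p = 0.0323). Sows share only a number: deviations of same-numbered sows correlated at -0.45 to 0.31, with 2 of 4 pairs over 0.1 in LH vs. LL, 1 in FH vs. FL, 3 in LH vs. FH and 0 in LL vs. FL. The numbers of pairs best matched by their own number were 2, 1, 3 and 0 of 4.

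Leaving out each sow, miRNAs past the adjusted threshold numbered 0 to 8 in LH vs. LL, 0 to 1 in FH vs. FL, 27 to 62 in LL vs. FL, 0 to 6 in the interaction and 48 to 83 between phases. The study's threshold was passed by 33 to 94 in LH vs. LL and 11 to 43 in FH vs. FL. Members past it were 0 to 1 in LH vs. FH, LL vs. FL and between phases and 0 to 2 in the interaction, and members past the adjusted threshold in LL vs. FL were 0 to 1. The miR-23b/miR-23a difference lay at 0.86 to 1.15 in LL vs. FL and 0.66 to 0.90 in LH vs. FH, where 3 sows against 4 cannot give an exact p below 0.0571. A pseudocount of 0.5 could hardly move ratios of counts this high, and the miR-23b/miR-23a difference in LH vs. FH was 0.75 with either pseudocount. None of the 12 ratio tests passed the adjusted threshold with either, and the ratio tests over both levels of fecundity were not refitted. The causes of these shifts were not tested. Depth was ample for the members (at least 8382 counts each), and how paralogous reads were divided cannot be told from counts.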
